A study of Mus musculus with 6 samples.

Results

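The genes described here write, keep and remove 5-methylcytosine in DNA: the DNA methyltransferase genes Dnmt1, Dnmt3a, Dnmt3b and Dnmt3l, the hemimethylated-DNA binding genes Uhrf1 and Uhrf2, the dioxygenase genes Tet1, Tet2 and Tet3, and the DNA glycosylase gene Tdg. These 10 genes were given by name, and a probe set was read for a gene only where the array annotation assigned it to that gene alone. This gave 22 of 45101 probe sets, for 9 of the 10 genes. The 3 probe sets annotated to Tdg are shared with related pseudogenes, so Tdg has no value here. Expression was measured on Affymetrix mouse arrays hybridised with RNA of mouse embryonic stem cells. The wild-type line was E14K. The other cells carried homozygous losses of both glycogen synthase kinase-3 genes (Gsk-3a-/-; Gsk-3b-/-, called DKO below). Both were grown on gelatin without feeder cells, in 15% serum with 1000 units/ml of leukaemia inhibitory factor, and each genotype had 3 arrays. The labels give neither the number of DKO clones nor whether replicates were separate cultures, so p-values cover the spread between these 6 samples alone, and that spread may be technical. Loss of Gsk-3 and any other difference between the lines cannot be told apart.

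DNA methylation in mammals is laid down by the de novo enzymes Dnmt3a and Dnmt3b, which work with the catalytically inactive cofactor Dnmt3l. It is copied at replication by Dnmt1, which Uhrf1 brings to hemimethylated sites. Tet enzymes oxidise 5-methylcytosine, and Tdg excises the oxidised bases so that repair restores cytosine. Dnmt3a is known to make a long protein and a shorter protein, Dnmt3a2, from an internal start; the shorter form is the usual one in embryonic stem cells.

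RefSeq (build GRCm38.p6) places Dnmt3a on chromosome 12 from 3801559 to 3914443 and lists 3 start windows for it, each of 250 bases before the start and 50 after. Windows are numbered by position among those listed, and the start of the first, 3806980, lies inside the span given for the gene. The first and the internal one are shown with the window of Tet1, because these were the genes whose probe sets fell, and with a window of Dnmt3l that shares a motif. The windows are not paired with transcripts in the table used. Capitals mark the E-box CACGTG, which Myc-family proteins bind, and the GC box GGGCGG or its reverse complement CCGCCC.
Dnmt3a, first start, chr12:3806730-3807029, plus strand: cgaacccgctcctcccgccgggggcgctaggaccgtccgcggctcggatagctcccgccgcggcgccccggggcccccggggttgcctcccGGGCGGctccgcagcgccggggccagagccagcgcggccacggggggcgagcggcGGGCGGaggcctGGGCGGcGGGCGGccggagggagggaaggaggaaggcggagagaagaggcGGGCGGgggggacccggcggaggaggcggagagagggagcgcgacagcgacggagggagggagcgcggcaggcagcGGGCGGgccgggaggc
Dnmt3a, internal start, chr12:3891494-3891793, plus strand: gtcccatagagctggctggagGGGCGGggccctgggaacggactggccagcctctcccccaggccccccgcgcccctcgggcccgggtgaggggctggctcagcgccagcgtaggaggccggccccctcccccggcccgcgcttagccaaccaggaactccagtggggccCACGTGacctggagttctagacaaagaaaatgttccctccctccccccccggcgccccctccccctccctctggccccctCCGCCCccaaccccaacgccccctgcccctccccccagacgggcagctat
Dnmt3l, second start, chr10:78049592-78049891, plus strand: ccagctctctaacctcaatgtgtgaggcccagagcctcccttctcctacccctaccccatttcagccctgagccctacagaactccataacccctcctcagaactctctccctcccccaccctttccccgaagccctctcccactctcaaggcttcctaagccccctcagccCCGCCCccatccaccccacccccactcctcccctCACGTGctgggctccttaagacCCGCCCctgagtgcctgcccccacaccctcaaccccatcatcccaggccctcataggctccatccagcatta
Tet1, chr10:62887275-62887574, minus strand: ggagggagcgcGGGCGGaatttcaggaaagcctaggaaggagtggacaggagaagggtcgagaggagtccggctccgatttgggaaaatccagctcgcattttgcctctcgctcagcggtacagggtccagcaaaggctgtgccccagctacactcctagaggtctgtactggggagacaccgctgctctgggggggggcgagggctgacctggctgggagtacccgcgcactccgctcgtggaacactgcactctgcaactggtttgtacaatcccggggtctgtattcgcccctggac
The internal start of Dnmt3a lies 84764 bases downstream of the first. It holds 18 CpG dinucleotides, against 46 in the first window and 47 in the second, which overlaps the first. The median over 32851 RefSeq windows of the same length was 7. CACGTG, read on both strands, was found in 3 of 17 windows of the 10 genes, the internal Dnmt3a window, the second Dnmt3l window and the window of Tdg, and in 7.15% of all windows. In the internal Dnmt3a window it began 80 bases before the start. GGGCGG was found on either strand in 13 of the 17 windows and in 35.7% of all, CCAAT in 6 and in 37.4%, and the Tcf/Lef motif CTTTGAT in 0 and in 3.73%; the 6 GC boxes of the first Dnmt3a window do not overlap each other, and 3 of the 7 in the second overlap in a run. A match describes these letters only.

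Median intensity per array was 10 to 11. The number of arrays limits the precision. A probe set was tested where its log2 intensity was at least 4 on at least 3 of the 6 arrays, which kept 20841 probe sets, 21 of them from 8 of the 10 genes. The Gsk3a probe set read 7.18, 7.08 and 6.04 in DKO and 8.65, 7.89 and 7.90 in wild-type cells, and its difference did not pass (adjusted p = 0.0942; 0.00646 with replicate numbers as a block). For Gsk3b 0 of 5 tested probe sets passed by limma, also with the block. Where these probe sets lie relative to the deleted parts is not known here. Both arrays numbered 3 stood apart: the mean log2 signal of 9 spike-in control probe sets was 10.18 and 10.53 on them and 1.64 to 1.85 on the other 4. The log2 ratio of 3' to 5' signal on 3 control transcripts, which rises with shorter RNA, was 2.20 ± 0.32 for DKO against 1.98 ± 0.33 for wild-type arrays (SD, n = 3), higher in DKO in each same-numbered pair. Its part in the differences below was not tested. All 10 embryonic stem cell markers were above the filter and 0 passed (0 also at an unadjusted p under 0.05, without moderation and with the block). Of 10 fibroblast markers 6 were under the filter, of 10 primitive endoderm markers 1 and of 8 trophoblast markers 4, and 0 passed. An unadjusted p under 0.05 was reached by 1, 2 and 2 of these, an adjusted one without moderation by 0, and with the block by 1, 0 and 1 (Col1a1, lower in DKO, and Eomes, higher in DKO). On replicates 1 and 2 alone Dab2, an endoderm marker, was lower in DKO (-2.44, adjusted p = 0.00579). The summed intensity of the stem cell markers did not overlap, at 25936 to 28218 in DKO and 28978 to 30048 in wild-type cells; 8 of the 10 differences were below 0, with a median of -0.20, and Tdgf1 and Lin28a were lower without overlap. Of the 9 tested endoderm markers 3 were below 0, with a median of 0.62, and Gata6 and Foxa2 were higher without overlap. Of the 4 tested fibroblast markers 1 was lower without overlap. Of the 4 tested trophoblast markers 1 was lower and 1 higher without overlap. Over all genes 10.4% were lower and 8.49% higher without overlap. Summed intensities of the other 3 lists overlapped between the genotypes, at 410 to 915 in DKO and 445 to 867 in wild-type cells for fibroblast, 9775 to 15178 and 8116 to 13498 for endoderm and 3014 to 5995 and 4225 to 7705 for trophoblast markers. The part of these markers' cells in the results was not tested, and in bulk RNA fewer cells of a type and less RNA per cell cannot be told apart.

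The comparison asks which of these genes differ in expression between cells without Gsk-3 and wild-type cells. Probe sets of Dnmt3a and Tet1 fell in DKO, and no probe set of the other 6 tested genes passed. Of the 21 tested probe sets 3 fell (2 of the 5 of Dnmt3a, 1 of the 4 of Tet1) and 0 rose. The 12 probe sets of the other 6 genes had 0 calls by limma, 0 with the replicate block, 0 without moderation and 1 at an unadjusted p under 0.05 (Dnmt3b). Over all tested probe sets 3.24% passed, 1.93% lower and 1.31% higher. Such shares are given for scale only, since the genes were chosen with earlier results of these data known. DKO and wild-type arrays did not overlap in 10 of the 21, all lower in DKO: 4 of Dnmt3a, 4 of Tet1, 1 of Dnmt3b and that of Dnmt3l. Over all probe sets 9.17% were lower and 7.57% higher without overlap. With the replicate block 7 of the 21 passed, again all lower (4 of Dnmt3a and 3 of Tet1), against 9.57% of all probe sets in either direction and 5.26% lower. The median log2 difference was -0.35 over the 21 and -0.02 over all tested probe sets.

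**Figure D1:**
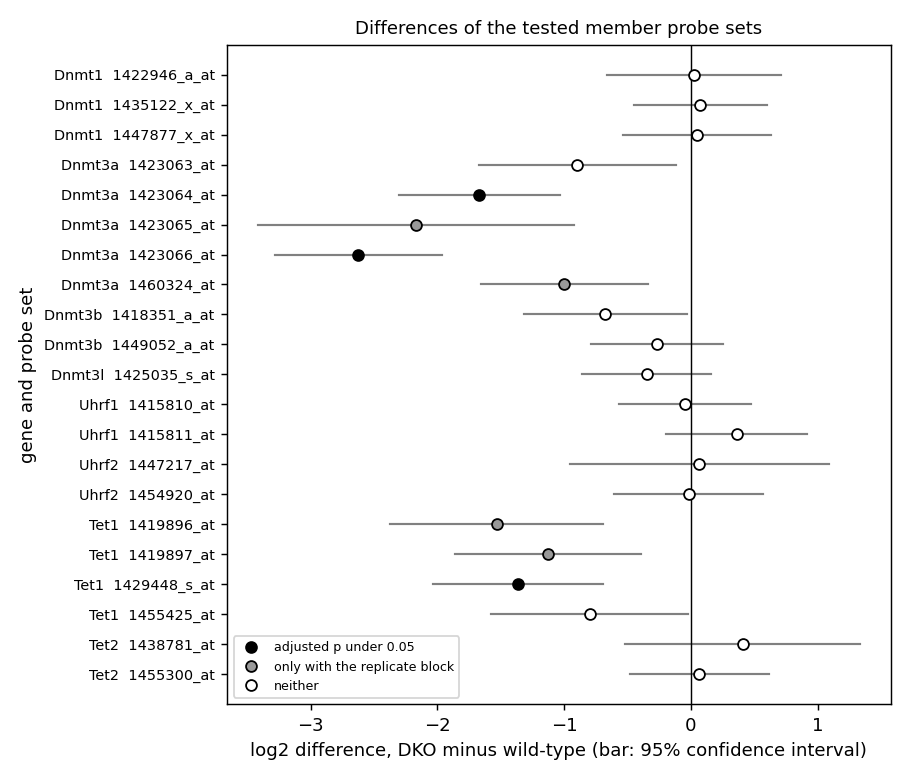
Log2 difference, DKO minus wild-type, of each tested probe set of the 8 genes (point) with its 95% confidence interval from limma (bar). Black points passed an adjusted p of 0.05, grey points passed only with the replicate block. All 9 probe sets of Dnmt3a and Tet1 lie below 0.

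Dnmt3a, the de novo methyltransferase, had 5 probe sets, all tested and all below 0, in each of the 3 same-numbered pairs. The annotation lists all 5 under the same source sequence, so it does not tell which transcript each reads. The brightest, 1423064_at, read 9.65, 9.71 and 9.24 in DKO replicates 1, 2 and 3 and 11.18, 11.61 and 10.81 in wild-type replicates 1, 2 and 3. The genotypes did not overlap on it, and every DKO array was more than 1 log2 unit below the lowest wild-type array. It fell by 1.67 on the log2 scale (SE 0.28, 95% interval -2.31 to -1.03, adjusted p = 0.0142), a 3.18-fold lower level. The same-numbered pairs differed by -1.53, -1.91 and -1.57. The call was lost without DKO replicate 1 (adjusted p = 0.0709) or wild-type replicate 2 (0.0687).

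With all 6 arrays the largest difference was on 1423066_at, at 5.17, 5.29 and 5.55 in DKO and 7.59, 8.50 and 7.79 in wild-type cells. All DKO arrays of it lay close together, and the gap to the wild-type arrays was wider than the range within either genotype. It fell by 2.62 on the log2 scale (SE 0.29, 95% interval -3.28 to -1.96, adjusted p = 0.0016), a 6.16-fold lower level. It passed in all 6 fits that left out an array (adjusted p 0.00243 to 0.0238) and in the fit on replicates 1 and 2 alone (-2.82, adjusted p = 0.00857).

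The other 3 Dnmt3a probe sets did not pass. On 1423065_at DKO read 4.64, 4.52 and 4.81, near the filter, and wild-type cells 7.28, 7.86 and 5.36. Wild-type replicate 3 was far below the other wild-type arrays there, but still above all DKO arrays. The difference was -2.17 (SE 0.55, adjusted p = 0.082), or -2.91 without wild-type replicate 3 (adjusted p = 0.001) and -2.98 on replicates 1 and 2 alone (adjusted p = 0.00389). In both of these fits it was larger than that on 1423066_at (-2.71 and -2.82). With the replicate block it passed (adjusted p = 0.012). Probe set 1460324_at, dim in both genotypes, read 4.75, 4.17 and 5.13 against 5.86, 5.70 and 5.49. These groups did not overlap, and the difference of -1.0 (SE 0.29, adjusted p = 0.135) passed with the block (adjusted p = 0.0372). Probe set 1423063_at read 8.74, 8.23 and 8.41 in DKO and 9.67, 9.79 and 8.61 in wild-type cells. It was the only 1 of the 5 whose groups overlapped, through wild-type replicate 3, and its difference was -0.90 (SE 0.34, adjusted p = 0.285; 0.0702 with the block).

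**Figure D2:**
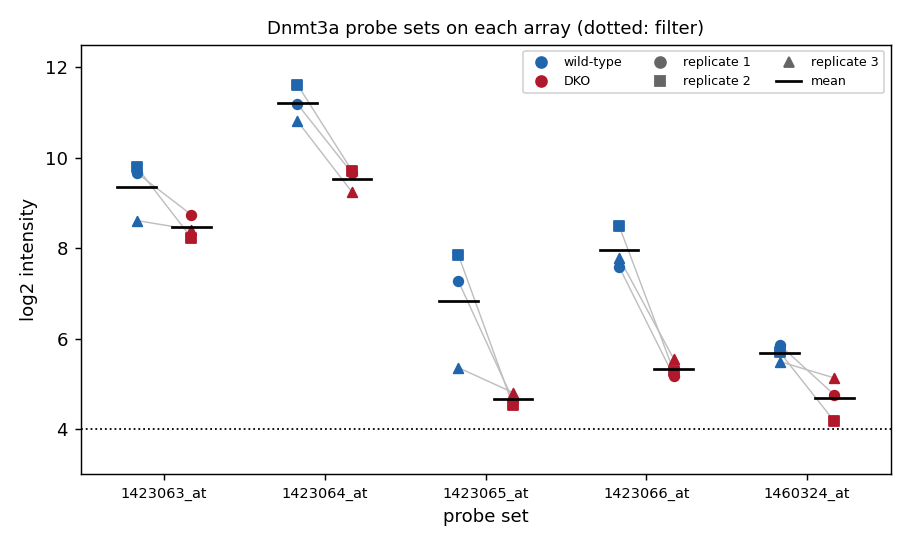
Log2 intensity of the 5 Dnmt3a probe sets on each array (blue wild-type, red DKO; marker shape gives the replicate number, grey lines join same-numbered arrays, black bars are means of 3 arrays, the dotted line is the filter at 4). Every grey line falls from wild-type to DKO. On 1423065_at wild-type replicate 3 reads 5.36 while the other wild-type arrays read 7.28 and 7.86.

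The 5 probe sets were also compared with each other, as the within-array difference of 1423064_at from each of the other 4, which shows unequal change and not a level. The smallest p that 3 against 3 arrays allow is 0.1 (exact permutation test, two-sided), so none of these comparisons could pass. From wild-type to DKO the difference from 1423063_at moved by -0.77 log2 units and that from 1423066_at by 0.96, in both cases with no overlap between the genotypes (exact p = 0.1, adjusted p = 0.2 over 4 comparisons). The difference from 1460324_at moved by -0.67 and that from 1423065_at by 0.50, with overlapping groups (exact p = 0.3 and 0.4, adjusted p = 0.4 for both). These sizes moved with single arrays and with the scale. With log2(value + 16) the value for 1423065_at was 0.054 and that for 1423066_at 0.59 (exact p = 0.8 and 0.2). For 1423065_at it was 0.27 without wild-type replicate 1, 0.20 without wild-type replicate 2, 1.04 without wild-type replicate 3 and 1.27 on replicates 1 and 2 alone. For 1460324_at it was -1.01 without DKO replicate 2, -0.30 without DKO replicate 3 and -0.40 on replicates 1 and 2 alone, where 1423063_at gave -0.47. A negative value means that 1423064_at was lowered by more than the other probe set, and the 5 differences ran from -2.62 to -0.90.

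Dnmt3b, the second de novo enzyme (chromosome 2, 153649411 to 153687730), had 2 tested probe sets. The brighter, 1449052_a_at, read 11.15, 11.40 and 11.55 in DKO and 11.53, 11.73 and 11.64 in wild-type cells. These groups overlapped, and the difference of -0.27 (95% interval -0.79 to 0.25, adjusted p = 0.753) did not pass; without DKO replicate 1 it was -0.16. On the dimmer, 1418351_a_at, the values were 7.52, 7.74 and 8.35 against 8.42, 8.40 and 8.82. All DKO arrays lay below all wild-type arrays, by a narrow margin, and the difference was -0.67 (95% interval -1.32 to -0.03, adjusted p = 0.351; 0.0783 with the block). Dnmt3l, the cofactor of both enzymes (chromosome 10, 78042287 to 78063622), read 11.04, 11.03 and 11.12 in DKO and 11.59, 11.43 and 11.23 in wild-type cells. Its genotypes did not overlap either, and the difference of -0.35 (95% interval -0.86 to 0.16) did not pass (adjusted p = 0.63; 0.384 with the block). Both Dnmt3b probe sets and that of Dnmt3l were lower in DKO in all 3 same-numbered pairs, as were 22.4% of all tested probe sets.

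The maintenance genes Dnmt1, Uhrf1 and Uhrf2 did not pass on any of their 7 probe sets. They lie on chromosome 9 (20907206 to 20959888), 17 (56303337 to 56323486) and 19 (30030430 to 30093726). Dnmt1, which copies the methylation pattern at replication, had 3 probe sets with differences of 0.02, 0.08 and 0.05 (adjusted p 0.953 to 0.991). Its brightest, 1447877_x_at, read 10.67, 11.13 and 11.20 in DKO and 10.69, 10.98 and 11.18 in wild-type cells (95% interval of the difference -0.54 to 0.63). The genotypes overlapped, and the spread among replicates was wider than the difference between genotypes. The brighter probe set of Uhrf1, which brings Dnmt1 to hemimethylated sites, was 1415810_at; it read 11.30, 11.70 and 11.36 in DKO and 11.53, 11.50 and 11.46 in wild-type cells, a difference of -0.05 (95% interval -0.56 to 0.47, adjusted p = 0.973). Its dimmer one, 1415811_at, differed by 0.36 (95% interval -0.20 to 0.92, adjusted p = 0.661), or by 0.21 without wild-type replicate 1 and 0.58 on replicates 1 and 2 alone. Wild-type replicate 3, at 7.38, fell within the DKO range of 7.30 to 7.52 there, and the other wild-type arrays, at 6.78 and 7.09, fell below it. Uhrf2, the paralogue of Uhrf1, had differences of -0.02 on 1454920_at (95% interval -0.61 to 0.57, adjusted p = 0.993) and 0.07 on the dim 1447217_at (95% interval -0.96 to 1.09, adjusted p = 0.981). A change of 0.5 log2 units in 1 direction or the other lies within the interval of each of these 7 probe sets.

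Tet1, the dioxygenase that is abundant in embryonic stem cells (chromosome 10, 62804570 to 62887469), had 4 probe sets, and all DKO arrays lay below all wild-type arrays on each. They come from 3 source sequences in the annotation; 1419896_at and 1419897_at share theirs. Probe set 1429448_s_at read 6.30, 6.32 and 6.48 in DKO and 7.36, 7.51 and 8.33 in wild-type cells. The DKO arrays agreed within 0.2 log2 units, and wild-type replicate 3 was the highest. It fell by 1.36 on the log2 scale (SE 0.30, 95% interval -2.03 to -0.70, adjusted p = 0.0435), a 2.58-fold lower level. This call was narrow: leaving out each array in turn, it passed only without wild-type replicate 1 (adjusted p = 0.0407), and it did not pass in the other 5 (adjusted p 0.0828 to 0.174) or on replicates 1 and 2 alone (-1.12, adjusted p = 0.117). With the replicate block the adjusted p was 0.00509.

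The other 3 Tet1 probe sets did not pass. Probe set 1419896_at read 6.09, 6.70 and 6.69 against 7.22, 8.56 and 8.29, a difference of -1.53 (SE 0.37, adjusted p = 0.0693). Probe set 1419897_at read 4.81, 5.39 and 5.0 against 5.55, 6.57 and 6.46, a difference of -1.13 (SE 0.32, adjusted p = 0.127). On both, replicate 1 was the lowest array of its genotype. With the replicate block both passed, at adjusted p = 0.00226 and 0.0112, and also without wild-type replicate 1 (0.0136 and 0.0391). The brightest, 1455425_at, read 9.18, 10.23 and 10.31 against 10.36, 10.94 and 10.82. Its DKO replicate 1 was about 1 log2 unit below the other DKO arrays, and its difference was -0.80 (95% interval -1.57 to -0.02, adjusted p = 0.361; 0.0508 with the block). Without DKO replicate 1 it was -0.44 (adjusted p = 0.665).

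Tet2, a second dioxygenase (chromosome 3, 133463677 to 133545136), did not pass. Its brighter probe set, 1455300_at, read 10.95, 11.13 and 10.95 in DKO and 10.66, 10.96 and 11.22 in wild-type cells (difference 0.07, 95% interval -0.48 to 0.61, adjusted p = 0.962). On 1438781_at the values were 8.61, 9.15 and 9.79 against 8.12, 8.72 and 9.49, and the difference of 0.41 (95% interval -0.52 to 1.34) did not pass (adjusted p = 0.804; 0.276 with the block). Leaving out wild-type replicate 1 gave 0.082 and wild-type replicate 3 gave 0.77. Leaving out DKO replicate 1 gave 0.70 and DKO replicate 3 gave 0.10. DKO was higher there in each same-numbered pair, while both genotypes spread over more than 1 log2 unit. The only Tet3 probe set of its own read 3.58, 3.00 and 3.17 in DKO and 3.32, 2.81 and 3.32 in wild-type cells. All 6 arrays were under the filter, so Tet3 was not tested.

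**Figure D3:**
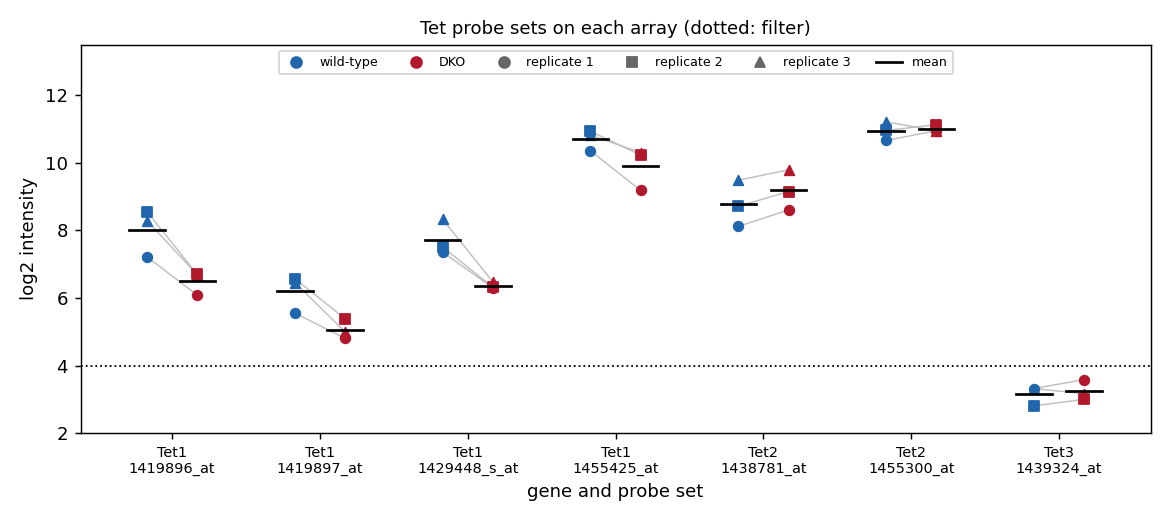
Log2 intensity of the 7 Tet probe sets on each array, drawn as in the plot of Dnmt3a. All 4 Tet1 probe sets are lower on every DKO array than on every wild-type array, the Tet2 arrays overlap, and Tet3 lies under the filter on all 6 arrays.

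Dnmt3a was set against each other tested gene as the within-array log2 difference of their brightest probe sets. From wild-type to DKO it moved by -1.40 against Dnmt3b and -1.32 against Dnmt3l, its partners in de novo methylation. It moved by -1.72 against Dnmt1, -1.62 against Uhrf1, -1.65 against Uhrf2 and -1.74 against Tet2. In these 6 comparisons the genotypes did not overlap, and each had an exact permutation p of 0.1, the smallest that 3 against 3 arrays allow, with an adjusted p of 0.117 over 7 comparisons. Against Tet1 it moved by -0.87 with overlapping groups (exact p = 0.2, adjusted p = 0.2), by -1.29 without DKO replicate 1 and by -0.52 without DKO replicate 3. No comparison of this size could pass 0.05. All 7 kept their sign in each of the 11 alternatives run, none of which changed the probe sets. Most of these could not reverse it. In the 6 comparisons without overlap, leaving out arrays cannot change the sign. Setting values under 16 to 16 and the replicate block left all 7 values unchanged. The Tet1 probe set compared, 1455425_at, had the smallest fall of the 4 Tet1 probe sets (-0.80, against -1.13, -1.36 and -1.53). Dnmt3a 1423063_at fell by less (-0.90) than these other 3. Whether Dnmt3a moved more than Tet1 on other probe sets was not tested.

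**Figure D4:**
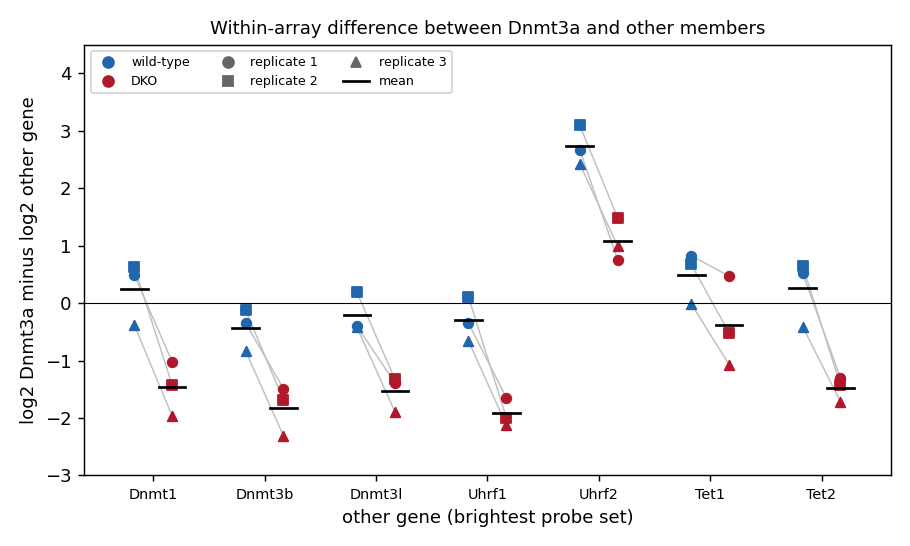
Log2 intensity of Dnmt3a minus that of each other gene on the same array, brightest probe sets (colours, shapes, lines and bars as in the plot of Dnmt3a). Only the change from blue to red is read, since levels of different probe sets are not comparable; for 6 of the 7 genes all DKO arrays lie below all wild-type arrays, and for Tet1 they overlap.

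Mycn encodes a Myc-family transcription factor, of the family that binds the E-box. Its brightest probe set, 1417155_at, read 10.23, 10.38 and 11.00 in DKO and 11.50, 11.41 and 11.56 in wild-type cells. These groups did not overlap, and the difference of -0.96 did not pass (SE 0.27, adjusted p = 0.116; 0.0251 with the block). This probe set also passed with an intensity trend in the moderation and with replicate 3 as a block of its own, and in no other alternative. A dimmer probe set, 1425922_a_at, read 5.0, 5.0 and 5.13 against 6.17, 6.21 and 7.18 and fell by 1.48 (adjusted p = 0.0366), but not on replicates 1 and 2 alone (adjusted p = 0.0969). Myc differed by 0.05 (adjusted p = 0.983) and Prdm14, a repressor of Dnmt3b and Dnmt3l in naive cells, by -0.03 (adjusted p = 0.989).

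Genes that act with these enzymes were read over 1 probe set each, the brightest tested. Of 16 partners in maintenance and recruitment, 8 methyl-CpG readers, 14 genes of demethylation and base repair, 8 of methyl donor supply and 14 transcription factors linked to Dnmt and Tet genes, 0 passed by limma in each list; over all 10496 genes 4.13% passed, 2.5% lower and 1.64% higher. An unadjusted p under 0.05 was reached by 1, 0, 4, 0 and 3 of them, and an adjusted one without moderation by 0. With the replicate block 1, 0, 2, 0 and 2 passed, against 10.7% of all genes, 5.63% lower and 5.07% higher. These were Dppa3 (-1.33), a maternal factor that shields methylation in the zygote, the glycosylase genes Smug1 (0.83) and Neil1 (0.80), Mycn and the repressor gene Tcf7l1 (-1.23). Signals were low for Dppa3 in DKO (5.09, 4.39 and 3.70) and for Neil1 in wild-type cells (4.0, 3.70 and 4.0). The Smug1 arrays overlapped between the genotypes. The list medians lay between -0.11 and -0.0040, and the median over all genes was -0.0025.

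Of 19 germline genes that DNA methylation silences in somatic cells 4 were under the filter. Of the 15 tested 3 fell in DKO, 0 rose and 12 did not pass. Over all genes 2.5% fell and 1.64% rose, given for scale only, since this list too was chosen with earlier results known. The median difference of the 15 was -0.90. The filter can be met by the wild-type arrays alone, and how many of the 15 met it so is not given here. The arrays did not overlap in 10, all lower, where 10.4% of all genes were lower and 8.49% higher without overlap. Slc25a31, a mitochondrial ADP/ATP carrier of the germline, read 5.55, 6.07 and 6.21 in DKO and 7.52, 7.61 and 7.25 in wild-type cells and fell by 1.51 (adjusted p = 0.0155). Taf7l, a testis TFIID subunit, fell by 1.23 (adjusted p = 0.0317), and Mael, a factor of the piRNA pathway, fell by 1.46 (adjusted p = 0.0492). On all 3 the genotypes did not overlap. Mael was lost with values under 16 set to 16 and with quantile normalization. Taf7l was lost with log2(value + 16) and with an intensity trend in the moderation. With a filter at log2 of at least 6 only Slc25a31 passed. With the block 9 were lower, the 3 called without it and Ddx4, Sycp1, Sycp3, Tex11, Tdrkh and Mov10l1. The differences of these added genes ran from -1.78 (Sycp1) to -0.82 (Tex11). With the block 1, Brdt, was higher (1.37, adjusted p = 0.0116). Over all genes 5.63% were lower and 5.07% higher with the block. Single arrays mattered: without DKO replicate 1 or wild-type replicate 2 none of the 3 passed, without DKO replicate 2 only Mael, without wild-type replicate 1 only Slc25a31, without DKO replicate 3 or wild-type replicate 3 Mael was lost, and on replicates 1 and 2 alone Slc25a31 and Sycp1 passed.

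**Figure D5:**
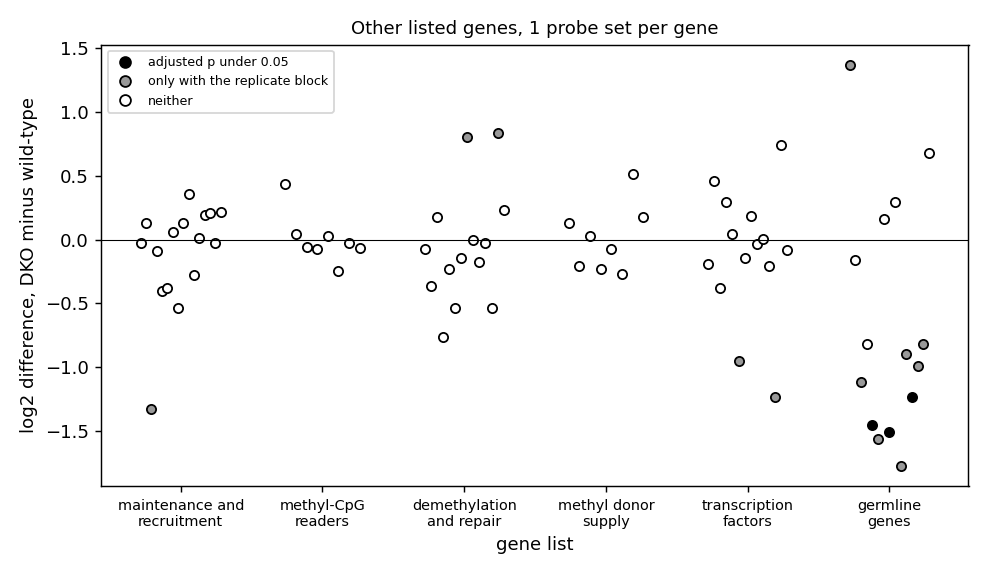
Log2 difference, DKO minus wild-type, of each tested gene (brightest probe set) in 6 lists, in alphabetical order within a list. Black points passed an adjusted p of 0.05 and grey points only with the replicate block; the 3 black points, all below 0, are the germline genes Mael, Slc25a31 and Taf7l.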

How the data were processed

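The authors deposited intensity values in whole numbers, on an unstated scale; here they were taken as linear (the highest is 12861) and converted to log2. Tools in the submitters' processing notes, with no role, are limma 2.16.5, GCRMA 2.14.1, R 2.8.0 and GCOS. RNA input was 25 ng, per the labels' protocols. Gene names come from the platform annotation, positions and promoter windows from RefSeq (GRCm38.p6).

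The genotypes were compared in limma 3.58.1 with R 4.3.3 (lmFit, eBayes, two-sided), with Benjamini-Hochberg adjustment over 20841 probe sets and a threshold of 0.05. Values are log2 means ± SD; SE is moderated. The procedure was tested on simulated data with independent noise on each array. That test does not cover deviations shared by same-numbered arrays. Same-numbered arrays deviated together from the genotype means (correlation 0.427, 0.354 and 0.595, each over 0.1, while unlike numbers reached 0.113), so the replicate numbers appear to pair the samples. Deviations from a genotype mean sum to 0, which by itself lowers the correlations of unlike numbers when those of same numbers are positive. The labels name no pairing. The main fit and the main permutation tests therefore leave it out, and the block is given as an alternative. No arrays were duplicates (at most 1.79% equal values).

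Members and lists were chosen with earlier results of these data known. Text names every member probe set, listed genes that passed (up to 3 per list), those that passed only with the block, seen afterwards, Mycn, Myc, Prdm14 and the targeted genes, the single markers called with the block, also seen afterwards, and the 5 genes nearest to Dnmt3a in profile.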

Additional observations from a re-analysis of the deposited data

How the results depend on the processing

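All 9 Dnmt3a and Tet1 probe sets stayed below 0 in every alternative that could test them (the stricter filter, log2 of at least 6, left out 1423065_at, 1460324_at, 1419897_at and Uhrf2 1447217_at). Most alternatives could not reverse this. The filters, the moderation settings, the blocks and values under 16 set to 16 left these differences unchanged. For the probe sets whose genotypes did not overlap, leaving out arrays cannot change the sign. Over all probe sets 675 passed, against 373 with the stricter filter, 31 without moderation, 1995 with the replicate block, 1117 with replicate 3 as a block of its own, 440 on replicates 1 and 2 only and 290 to 604 without single arrays. Of the members 3 probe sets passed, against 1 with no filter, 0 without moderation (8 at an unadjusted p under 0.05), 7 with the replicate block, 5 with replicate 3 as a block and 1 to 5 without single arrays (1 without DKO replicate 1 or wild-type replicate 2, 5 without wild-type replicate 1). The 1 left by no filter was Dnmt3a 1423066_at; with values under 16 set to 16 Tet1 1429448_s_at was lost (adjusted p = 0.0515), and without moderation 1423066_at had an adjusted p of 0.0983. The brightest Dnmt3a probe set differed by -1.67 but did not pass with no filter (adjusted p = 0.0898) or without moderation (0.159); without single arrays it ran from -1.87 to -1.46. Of 75 other listed genes 3 passed, against 0 with no filter and 0 without moderation (16 and 13 at an unadjusted p under 0.05), 1 with the stricter filter, 15 with the replicate block, 10 with replicate 3 as a block and 0 to 4 without single arrays. The cause of these differences was not tested. Differences close to 0 changed sign: without single arrays Dnmt1 ran from -0.18 to 0.26 (1422946_a_at), -0.027 to 0.16 (1435122_x_at) and -0.082 to 0.21 (1447877_x_at), Uhrf1 1415810_at from -0.17 to 0.029, Uhrf2 from -0.36 to 0.33 (1447217_at) and -0.24 to 0.10 (1454920_at) and Tet2 1455300_at from -0.074 to 0.20. On replicates 1 and 2 only, Uhrf2 read -0.085 and 0.041 on these. The comparisons of Dnmt3a with other members and among its probe sets kept their sign in all alternatives. Their size stayed the same with values under 16 set to 16 and in the test within same-numbered pairs (replicate block), and changed in the others. The test within pairs cannot change sign or size. Where the genotypes did not overlap, leaving out arrays could not reverse the sign. None of these alternatives changed the probe sets compared. The scale of the deposited values is unknown and they carry no detection calls, so whether DKO values of Dnmt3a near 4 are above background is not known. On 1423065_at the SD was 0.14 for DKO and 1.31 for wild-type arrays.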

Other observations

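The 5 genes whose profile over the 6 arrays came nearest to the brightest Dnmt3a probe set, by root mean square distance of centred log2 values among 10495 other genes, were Syt4, a synaptotagmin (0.131), Rnf144a, a ubiquitin ligase (0.138), Nexn, an actin-binding protein (0.147), Ncam1, a cell adhesion molecule (0.148), and Aif1l (0.151), where the median over all genes was 0.939. Since Dnmt3a differs by genotype, genes near it do too by this choice; their log2 differences ran from -1.70 (Aif1l) to -1.61 (Rnf144a). Syt4 and Nexn were under 16 on every DKO array. Among the genes above, Mycn ranked 522 (0.591), Tet1 911 (0.678), Dnmt3l 1095 (0.712) and Dnmt3b 1733 (0.771), and Dnmt1 ranked 5550 (0.954).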
